A study of Mus musculus with 8 samples.

Results

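The 10 genes described here are known for brown adipocyte identity and heat production, and were measured by mRNA sequencing in brown adipose tissue (BAT) of obese mice. They are *Ucp1*, *Dio2*, *Ppargc1a* and *Cidea*, which cold and adrenergic signals induce, *Zic1*, *Lhx8*, *Ebf2* and *Prdm16*, which mark or set the brown lineage, and the membrane protein genes *Kcnk3* and *Otop1*. They were chosen by name and found among the 44674 genes of the deposited files by matching gene identifiers to symbols of the mouse GRCm38 annotation. All 10 had a row, and all 10 passed the filter on low counts.

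BAT came from 4 Ox1RΔSERT mice (Ox1R fl/fl, Sert-Cre tg/wt) and 4 control mice from the same breeding (Ox1R fl/fl without the Cre transgene), so the controls carried the floxed orexin receptor alleles too. Sert-Cre is driven by the gene of the serotonin transporter, *Slc6a4*, and deletes the receptor in cells that express this transporter, such as the serotonergic neurons of the raphe nuclei. All 8 mice were male, received a high-fat diet (HFD) from week 4 to week 18, and were decapitated at the end of a hyperinsulinemic-euglycemic clamp, in which insulin is infused and glucose is given to hold blood glucose steady. The comparison asks how BAT expression differed when serotonergic cells lacked the orexin receptor. The deletion was aimed at serotonergic cells, and the sources used here report no check of recombination in BAT. The transcript of the receptor, *Hcrtr1*, had 0 to 5 counts per mouse in either group, so its level in BAT does not check the genotype.

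Brown adipocytes burn fatty acids in mitochondria and release the energy as heat through UCP1, a carrier that lets protons leak across the inner membrane. Sympathetic nerves switch this on: noradrenaline acts on beta-adrenergic receptors, cyclic AMP rises, protein kinase A is activated, and transcription factors of the CREB and ATF families together with the coactivator PGC-1alpha (*Ppargc1a*) raise *Ucp1* and *Dio2*. The deiodinase encoded by *Dio2* makes active thyroid hormone inside the cell, which adds to the induction. The lineage genes work upstream in time: EBF2 and PRDM16 are transcriptional regulators that commit precursors to the brown fate and keep it, whereas *Zic1* and *Lhx8* encode transcription factors used as markers of the classical interscapular depot.

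Upstream sequences are shown for the 3 inducible genes with a sequence window and for the lineage gene *Zic1*. They were searched for a short cyclic AMP response element, TGACG on either strand (CGTCA), which is the half-site of the palindrome TGACGTCA. Whether a match is used in these genes was not tested, and elements farther from the start or at other starts were not examined. Each run gives the 250 bases before the RefSeq transcription start on GRCm38.p6, 5′ to 3′ on the strand of the gene, with matches to the half-site in capitals. The windows are chr8:83290098-83290347 on the plus strand for *Ucp1*, and, on the minus strand, chr12:90739039-90739288 for *Dio2*, chr5:51567726-51567975 for *Ppargc1a* and chr9:91365769-91366018 for *Zic1*.
Ucp1: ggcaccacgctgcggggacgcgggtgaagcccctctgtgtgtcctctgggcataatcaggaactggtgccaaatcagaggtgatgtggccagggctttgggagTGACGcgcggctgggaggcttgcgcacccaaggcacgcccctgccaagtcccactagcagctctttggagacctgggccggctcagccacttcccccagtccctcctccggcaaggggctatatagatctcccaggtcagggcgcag
Dio2: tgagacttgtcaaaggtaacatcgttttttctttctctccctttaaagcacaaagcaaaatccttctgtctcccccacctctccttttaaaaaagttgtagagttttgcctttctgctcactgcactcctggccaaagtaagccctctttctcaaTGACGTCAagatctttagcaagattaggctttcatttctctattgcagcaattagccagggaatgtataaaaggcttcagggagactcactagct
Ppargc1a: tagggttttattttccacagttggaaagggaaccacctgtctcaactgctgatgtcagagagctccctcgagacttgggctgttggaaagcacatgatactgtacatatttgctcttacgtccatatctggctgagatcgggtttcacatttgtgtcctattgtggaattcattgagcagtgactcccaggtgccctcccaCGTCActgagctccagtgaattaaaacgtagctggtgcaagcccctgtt
Zic1: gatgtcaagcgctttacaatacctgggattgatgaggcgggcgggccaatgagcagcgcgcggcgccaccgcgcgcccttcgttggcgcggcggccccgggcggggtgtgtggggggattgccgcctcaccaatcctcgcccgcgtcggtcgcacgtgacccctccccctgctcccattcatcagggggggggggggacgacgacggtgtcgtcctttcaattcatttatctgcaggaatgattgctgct

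A half-site began at -147 from the start in *Ucp1* and at -49 in *Ppargc1a*. *Dio2* held the whole palindrome at -95, in which half-sites on the opposite strands overlap. The windows of *Zic1*, *Prdm16*, *Lhx8* and *Otop1* held none of these letters, which says only that they are absent from these 250 bases. Windows for the other 3 genes, *Cidea*, *Ebf2* and *Kcnk3*, were not analysed here. Across all 32851 windows of the same length, 17.8% held a half-site and 1.55% held the palindrome. The RefSeq start of *Dio2* lay 600 bases and that of *Otop1* 1432 bases from the outer start of the gene in the GENCODE annotation, and 0 to 99 bases in the other 5 genes.

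Total counts were 35852708 to 50020837 in control mice and 41562505 to 50063339 in Ox1RΔSERT mice. Mitochondrially encoded genes took 40% to 46.8% of them in control mice. In Ox1RΔSERT mice 11243, 11601, 11613 and 11708 they took 44.6%, 33.6%, 34% and 36.2%, so all but mouse 11243 were below every control. The tissue carried adipocyte transcripts in every mouse: the summed normalized value (CPM after TMM scaling) of *Adipoq*, *Plin1*, *Fabp4*, *Lipe*, *Pnpla2* and *Dgat2* was 9121 to 12050 in control and 7479 to 10447 in Ox1RΔSERT mice, lowest in mice 11601 and 11708. These mice also stood apart in other cell types. The 10 macrophage markers, none of them at 0, summed to 130 to 283 in control mice, to 200 and 225 in Ox1RΔSERT mice 11243 and 11613, and to 941 and 746 in mice 11601 and 11708. The 8 preadipocyte and fibroblast markers summed to 389 to 1040 in control mice, and to 691, 999, 5563 and 2581 in mice 11243, 11613, 11601 and 11708. The 8 skeletal muscle markers were high in control mouse 11253 (1548) and in Ox1RΔSERT mice 11708 (2131) and 11601 (171), and summed to at most 38.8 in the other 5 mice. The part of these cell types in the results on the 10 genes was not tested, and in bulk tissue fewer brown adipocytes and less RNA per cell cannot be told apart.

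Per length, *Ucp1*, *Cidea* and *Dio2* were far more abundant than the lineage genes. On the TPM scale, which corrects for transcript length, *Ucp1* averaged 2137 over the 8 mice and ranked 6th among nuclear genes. *Cidea*, a lipid droplet protein gene, followed at 875, then *Dio2* at 82.7, the potassium channel gene *Kcnk3* at 73.1, the proton channel gene *Otop1* at 46.6 and *Ppargc1a* at 12.3. The lineage genes were at 6.07 TPM for *Ebf2*, 2.63 for *Zic1*, 1.9 for *Lhx8* and 1.72 for *Prdm16*. The counts behind these levels ran from 120047 to 220333 per mouse for *Ucp1* down to 76 to 219 for *Lhx8*. The order was not fixed at each step: *Dio2* was above *Kcnk3* in 3 of 8 mice, *Ppargc1a* above *Ebf2* in 6, *Zic1* above *Lhx8* in 7 and *Lhx8* above *Prdm16* in 4, whereas the other neighbours kept their order in all 8 mice.

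Of the 10 genes, 9 had a lower fitted level in Ox1RΔSERT mice, and 0 of 10 passed edgeR's quasi-likelihood test at an adjusted p under 0.05, where 0% of all 14489 tested genes passed. No gene of the table had an adjusted p below 0.316. At an unadjusted p under 0.05, 3 of 10 genes were lower (*Ucp1*, *Dio2* and *Zic1*) and 0 were higher. The background was 4.96% of tested genes lower and 10.2% higher. The count of 3 was not stable. In edgeR with single mice left out it ranged from 0 (without control mouse 11560) to 4 (without Ox1RΔSERT mouse 11613). It was 0 with limma on log2(TPM + 0.1), log2(TPM + 1) and ratios to the adipocyte genes. On these scales 3200, 3038 and 1796 of all tested genes had an unadjusted p under 0.05 in either direction. In none of the 10 genes did all mice of one group lie outside the range of the other, against 5.5% of tested genes. DESeq2 called 0 of the 10 genes and 1.75% of the genes it tested, 265 of 15119. The median log2 fold change of the 10 genes was -0.32, beside 0.00 over all tested genes.

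**Figure D1:**
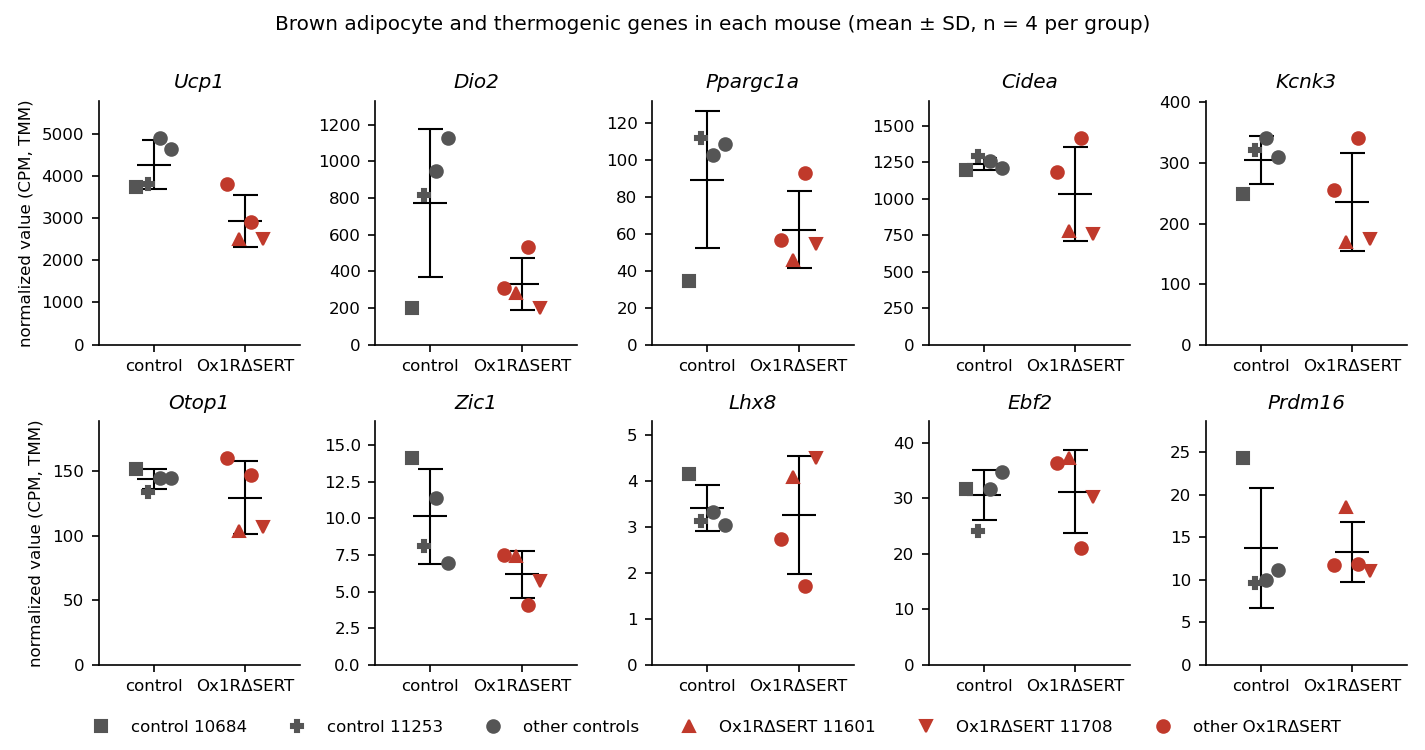
Normalized value (CPM after TMM scaling, linear axis from 0) of the 10 genes in each mouse, with control mice in grey, Ox1RΔSERT mice in red, and the mean ± SD of each group (n = 4) as bars. *Ucp1* and *Dio2* are lower in most Ox1RΔSERT mice, control mouse 10684 (square) is low for *Dio2* and *Ppargc1a* and high for *Prdm16* and *Zic1*, and mice 11601 and 11708 (triangles) are low for *Cidea*, *Kcnk3* and *Otop1*.

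*Ucp1* (ENSMUSG00000031710, chromosome 8, 83290352 to 83298452, plus strand), whose product is the proton leak itself, was lower in Ox1RΔSERT mice. Control mice 10684, 11253, 11560 and 11563 were at normalized values of 3731, 3806, 4894 and 4631. Ox1RΔSERT mice 11243, 11601, 11613 and 11708 were at 3817, 2513, 2903 and 2513. Thus 3 of 4 Ox1RΔSERT mice were below every control mouse, and the groups overlapped only through mouse 11243, which lay just above the lowest control mice. The means were 2936 ± 615 and 4266 ± 585 (SD, n = 4 each). The fitted level was 0.688 times that of controls (95% interval 0.516 to 0.919), a log2 fold change of -0.54 ± 0.18 (SE) with an unadjusted p of 0.0169 and an adjusted p of 0.316 in edgeR. DESeq2 gave an adjusted p of 0.0884, and the exact permutation test over the 70 assignments of 4 mice against 4 gave p = 0.0857, two-sided, where the smallest possible value is 0.0286.

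The *Ucp1* difference was smaller in TPM, a scale on which the median of all tested genes was also shifted. In TPM, Ox1RΔSERT mice lay in a narrow band of 1893 to 2022 and control mice were at 2106, 1863, 2638 and 2602, so that control mouse 11253 was below all Ox1RΔSERT mice. The log2 difference was -0.21 on the log2(TPM + 0.1) scale, where the median of all tested genes was shifted by 0.32. Relative to that median *Ucp1* was at -0.53, beside -0.54 on the normalized scale. On the log2(TPM + 1) scale it was at -0.44 relative to the median. As a share of the 6 summed adipocyte transcripts, *Ucp1* stood at 31%, 34.1%, 50.7% and 50.8% in the control mice and at 38.1%, 31.7%, 27.8% and 33.6% in Ox1RΔSERT mice 11243, 11601, 11613 and 11708. Most of that sum was *Fabp4* in every mouse, and *Dgat2* was at 1380 in control mouse 10684 and at 342 to 620 in the other controls. Without mice 11601 and 11708 the log2 fold change of *Ucp1* on the normalized scale was -0.34.

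*Dio2* (ENSMUSG00000007682, chromosome 12, 90724552 to 90738438, minus strand), the type 2 deiodinase gene, had the largest log2 fold change of the 10 genes. Control mice 10684, 11253, 11560 and 11563 were at 198, 818, 946 and 1126 on the normalized scale. In Ox1RΔSERT mice 11243, 11601, 11613 and 11708 they were 309, 283, 534 and 198. All 4 Ox1RΔSERT mice were below 3 of the control mice, and control mouse 10684 was as low as the lowest of them. The means were 331 ± 143 and 772 ± 403 (SD, n = 4 each). This was 0.429 times the control level (95% interval 0.196 to 0.936), with a log2 fold change of -1.22 ± 0.50 (SE), an unadjusted p of 0.0365 and an adjusted p of 0.32 in edgeR. The exact permutation test gave p = 0.114, and DESeq2 an adjusted p of 0.121. Without control mouse 10684 the log2 fold change was -1.54, with an adjusted p of 0.306 in edgeR and 0.000701 in DESeq2. With mice 11601 and 11708 left out it was -0.87, and the adjusted p-values were 0.996 in edgeR and 1 in DESeq2. It was -0.71 on the log2(TPM + 0.1) scale, or -1.02 relative to the median of all tested genes on that scale, and -0.82 as a ratio to adipocyte genes.

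*Ppargc1a* (ENSMUSG00000029167, chromosome 5, 51454250 to 51567726, minus strand), the coactivator of mitochondrial biogenesis, showed the same arrangement of mice with a difference that was within its spread. Control mice 10684, 11253, 11560 and 11563 had normalized values of 34.3, 112, 103 and 109. Ox1RΔSERT mice 11243, 11601, 11613 and 11708 had 56.5, 45.8, 93 and 54.5. All 4 Ox1RΔSERT mice were below 3 of the control mice, while control mouse 10684 was the lowest of all 8. The means were 62.5 ± 20.9 and 89.7 ± 37.1 (SD, n = 4 each). The log2 fold change was -0.52 ± 0.37 (SE, 95% interval -1.36 to 0.31), with an adjusted p of 0.496 in edgeR and 0.475 in DESeq2. The skeletal muscle sums were 1548 in mouse 11253, the highest control for *Ppargc1a*, and 4.34 and 2.35 in controls 11560 and 11563. The part of skeletal muscle in the *Ppargc1a* values was not tested. Without mouse 11253 the log2 fold change was -0.41, without mouse 10684 it was -0.79, and without mice 11601 and 11708 it was -0.26.

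*Cidea* (ENSMUSG00000024526) encodes a protein of the lipid droplet surface that is abundant in brown fat. Control mice were close to each other at normalized values of 1199, 1289, 1258 and 1212, with a coefficient of variation of 3.36%. Ox1RΔSERT mice 11243, 11601, 11613 and 11708 were at 1185, 775, 1414 and 759, with a coefficient of variation of 31.1%. Mice 11601 and 11708 lay far below the controls, mouse 11243 just below them and mouse 11613 above all of them. The log2 fold change was -0.26 ± 0.21 (SE, 95% interval -0.73 to 0.21; adjusted p = 0.543 in edgeR). It was 0.07 without mice 11601 and 11708. On the log2(TPM + 0.1) scale it was 0.01, and -0.31 relative to the median of all tested genes on that scale.

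The membrane protein genes followed the pattern of *Cidea*. *Kcnk3* (ENSMUSG00000049265, chromosome 5, 30588170 to 30625271, plus strand) encodes a potassium channel that is enriched in thermogenic adipocytes. Controls were at 248, 321, 341 and 310, and Ox1RΔSERT mice 11243, 11601, 11613 and 11708 at 255, 170, 341 and 174, on the normalized scale. The log2 fold change was -0.37 ± 0.23 (SE, 95% interval -0.89 to 0.15), with an adjusted p of 0.437 in edgeR. *Otop1* (ENSMUSG00000051596, chromosome 5, 38275972 to 38304217, plus strand), a proton channel gene, was at 152, 134, 145 and 145 in control mice and at 160, 104, 147 and 107 in the Ox1RΔSERT mice in the same order. Its log2 fold change was -0.15 ± 0.15 (SE, 95% interval -0.49 to 0.19), with an adjusted p of 0.626 in edgeR. For both genes, mice 11601 and 11708 were the only ones below all controls. Without them the log2 fold changes were -0.03 for *Kcnk3* and 0.10 for *Otop1*. The same mice had the high macrophage and fibroblast sums and the low adipocyte sums given above, and the part of these in the values of *Cidea*, *Kcnk3* and *Otop1* was not tested. As a share of the adipocyte transcripts, *Cidea* was at 9.78% and 10.2% in mice 11601 and 11708, and at 9.95% to 13.3% in control mice.

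**Figure D2:**
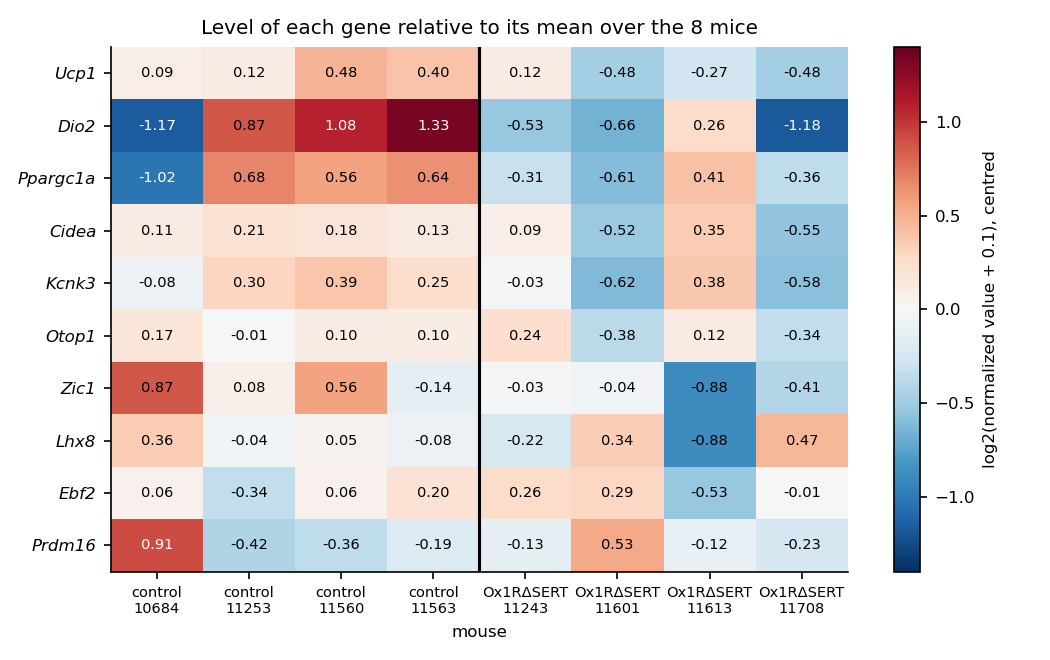
Level of each gene (rows) in each mouse (columns, controls left of the line) as log2(normalized value + 0.1) minus the mean of the 8 mice, with red above and blue below the mean. *Cidea*, *Kcnk3* and *Otop1* are at -0.34 to -0.62 in mice 11601 and 11708, whereas *Dio2* and *Ppargc1a* are at -1.17 and -1.02 in control mouse 10684, where *Zic1* and *Prdm16* are at 0.87 and 0.91.

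Among the lineage genes, *Zic1* (ENSMUSG00000032368, chromosome 9, 91358058 to 91365810, minus strand) was the exception in having a low unadjusted p. On the normalized scale, control mice 10684, 11253, 11560 and 11563 were at 14.1, 8.09, 11.4 and 6.96. In Ox1RΔSERT mice 11243, 11601, 11613 and 11708 they were 7.49, 7.44, 4.11 and 5.76. All 4 Ox1RΔSERT mice were below 3 of the control mice, and control mouse 11563 lay within their range. The means were 6.2 ± 1.61 and 10.1 ± 3.23 (SD, n = 4 each). The fitted level was 0.613 times that of controls (95% interval 0.402 to 0.935), a log2 fold change of -0.71 ± 0.27 (SE) with an unadjusted p of 0.0279 and an adjusted p of 0.316 in edgeR. DESeq2 gave an adjusted p of 0.152 and the exact permutation test p = 0.0857. Without mice 11601 and 11708 the log2 fold change was -0.80, with an adjusted p of 0.996 in edgeR. The unadjusted p was then no longer under 0.05 in edgeR but was under 0.05 in DESeq2. The neighbouring *Zic4*, which shares 60 exonic bases with *Zic1* on the opposite strand, was at 0.462 to 1.78 in control and 0.674 to 0.888 in Ox1RΔSERT mice.

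With all mice included, the other lineage genes had estimates near 0. *Lhx8* (ENSMUSG00000096225, chromosome 3, 154306294 to 154330659, minus strand) was at normalized values of 4.16, 3.14, 3.34 and 3.05 in control and 2.75, 4.1, 1.71 and 4.5 in Ox1RΔSERT mice 11243, 11601, 11613 and 11708. Its log2 fold change was -0.07 ± 0.30 (SE, 95% interval -0.74 to 0.60). Without mice 11601 and 11708, which were the highest of their group, it was -0.61. The unadjusted p was then under 0.05 in edgeR and in DESeq2, with an adjusted p of 0.996 in edgeR. *Ebf2* (ENSMUSG00000022053, chromosome 14, 67233292 to 67430918, plus strand), the gene of an early B cell factor that opens brown fat genes, was at 31.7, 24.1, 31.7 and 34.8 in control and 36.4, 37.2, 21 and 30.3 in Ox1RΔSERT mice. Its log2 fold change was 0.03 ± 0.19 (SE, 95% interval -0.40 to 0.46). Unlike *Cidea*, neither gene was low in mice 11601 and 11708, and the lowest value of both came from Ox1RΔSERT mouse 11613.

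*Prdm16* (ENSMUSG00000039410, chromosome 4, 154316125 to 154636873, minus strand), the cofactor gene that holds adipocytes to the brown fate, was set apart by single mice. Control mouse 10684 was at a normalized value of 24.3, and control mice 11253, 11560 and 11563 were at 9.61, 9.98 and 11.2. Ox1RΔSERT mouse 11601 was at 18.6, and mice 11243, 11613 and 11708 were at 11.8, 11.9 and 11. The log2 fold change was -0.05 ± 0.32 (SE, 95% interval -0.78 to 0.68; adjusted p = 0.952 in edgeR) with all mice, and 0.37 without mouse 10684. The intervals of *Prdm16* and *Lhx8* reach below the estimate for *Ucp1*, -0.54, and so include a difference of that size, whereas the interval of *Ebf2* ends above it at -0.40. *Dio2*, *Prdm16*, *Ebf2*, *Zic1* and *Kcnk3* share 60 to 424 exonic bases with a gene on the opposite strand. The libraries kept strand information, but whether the quantification used it is not given in the sources used here.

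**Figure D3:**
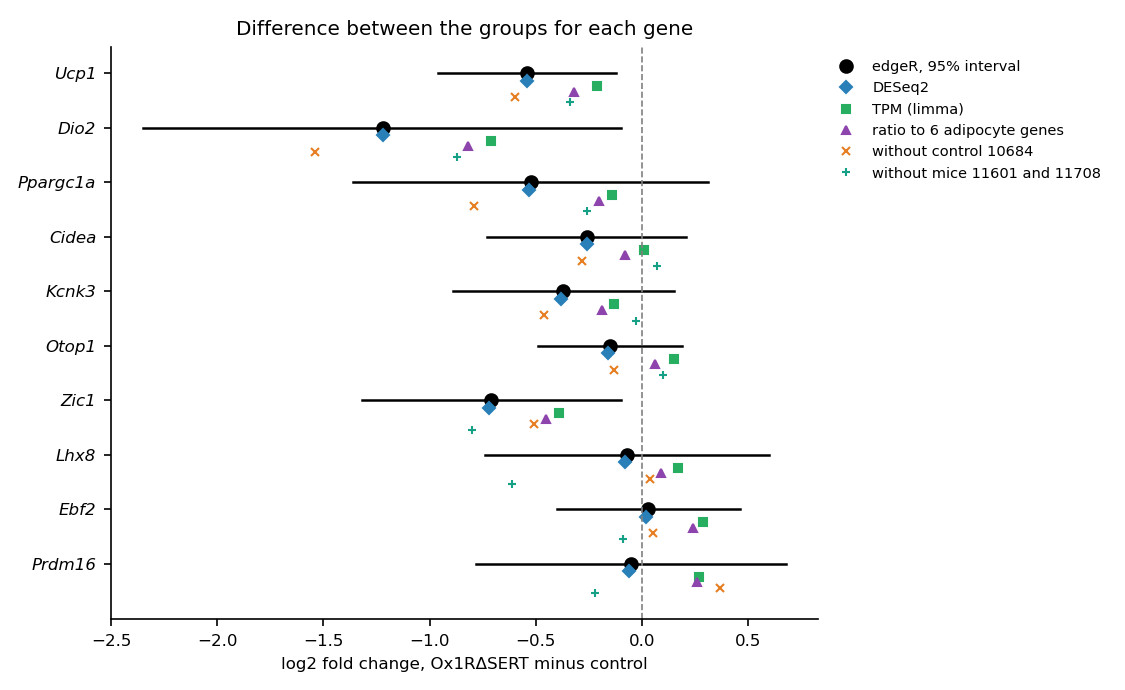
Log2 fold change of each gene, Ox1RΔSERT minus control. Black points with 95% intervals are from edgeR, and coloured symbols are DESeq2, limma on TPM values, the ratio to 6 summed adipocyte genes, and edgeR without control mouse 10684 or without mice 11601 and 11708. The edgeR intervals of *Ucp1*, *Dio2* and *Zic1* end below 0 (at -0.12, -0.10 and -0.10), and the other 7 include 0.

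The inducible genes were then set against the lineage genes within each mouse, a difference in which the scaling of a library nearly cancels. It was the mean log2(normalized value + 0.1) of *Ucp1*, *Dio2*, *Ppargc1a* and *Cidea* minus that of *Zic1*, *Lhx8*, *Ebf2* and *Prdm16*. Control mice 10684, 11253, 11560 and 11563 were at 4.83, 6.53, 6.38 and 6.56. Ox1RΔSERT mice 11243, 11601, 11613 and 11708 were at 5.75, 5.03, 6.67 and 5.28. The lowest and the highest of all 8 values thus came from a control mouse and an Ox1RΔSERT mouse, and the groups overlapped over nearly their whole range. The means were 5.68 ± 0.72 and 6.07 ± 0.83 (SD, n = 4 each), a difference of -0.39, which was smaller than either SD. The inducible mean differed by -0.59 and the lineage mean by -0.20. Leaving out single mice moved the difference between -0.80 (without control mouse 10684) and -0.17 (without Ox1RΔSERT mouse 11601), and without mice 11601 and 11708 it was 0.14. No test was made on this score, since its genes were chosen with results of these data known.

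**Figure D4:**
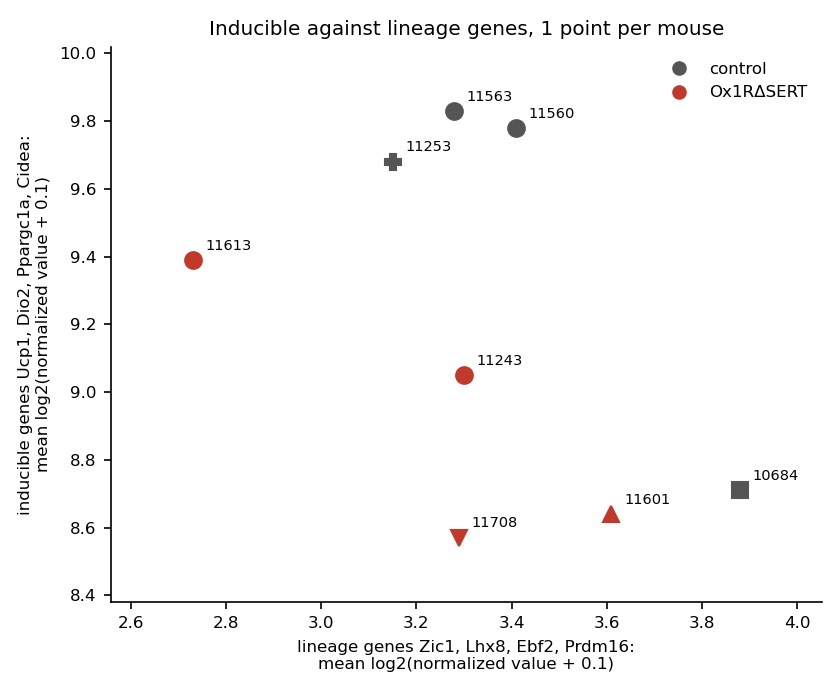
Mean log2(normalized value + 0.1) of the 4 inducible genes (vertical) against that of the 4 lineage genes (horizontal), 1 point per mouse, controls in grey and Ox1RΔSERT mice in red. Controls 11253, 11560 and 11563 lie at the top (9.68, 9.78 and 9.83), control 10684 lies at the lower right (8.71 and 3.88) beside mouse 11601 (8.64 and 3.61), and mouse 11613 has the lowest lineage mean (2.73).

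Across the 8 mice, likeness was measured as the root mean square difference of log2(normalized value + 0.1) centred on the mean, so that smaller values mean more alike. Genes were not scaled to the same spread, so this value reflects the size of the changes as well as their direction. Of the 45 pairs of genes, *Cidea* and *Kcnk3* were the most alike at 0.13, followed by *Cidea* and *Otop1* at 0.16 and *Ucp1* and *Otop1* at 0.24. *Dio2* was the least like the lineage genes, at 1.28 from *Prdm16* and 1.19 from *Lhx8*. The inducible genes were not nearest to each other on this measure: *Cidea* was nearer to the membrane protein genes, at 0.13 and 0.16, than to *Ucp1*, at 0.27. These values share 1 set of libraries and their scaling and are a description.

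The tested genes closest to *Ucp1* in pattern were *Them4* at 0.07, *Hist1h1c* at 0.08, *Rbm47* at 0.09, *Ctsz* at 0.10 and *Gm26944* at 0.11, where the median over the other 14488 tested genes was 0.42. *Them4*, an acyl-CoA thioesterase gene, had 13.8, 15, 19.2 and 17.1 in controls and 13.6, 10, 11.4 and 10.5 in Ox1RΔSERT mice on the normalized scale. The closest to *Ppargc1a* were *Acot4* at 0.14, *Cpeb4* and *Ccng2* at 0.24, *Gm11714* at 0.25 and *Myl4* at 0.26, where the median was 0.67. *Acot4*, a peroxisomal acyl-CoA thioesterase gene, was at 4.08, 10.2, 9.85 and 10.1 in control mice and 5.92, 4.12, 10.1 and 4.81 in Ox1RΔSERT mice. As with *Ppargc1a*, control mouse 10684 was far below the other controls.

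The genes around the 10 in the thermogenic pathway were described by role, with lists chosen when earlier results of these data were known. The shares over all tested genes, to be set beside the counts of these lists, were 4.96% lower and 10.2% higher at an unadjusted p under 0.05 in edgeR. Groups without overlap made up 5.5%, in either direction, and DESeq2 called 1.75%. Of 12 signal inputs (receptors, cyclic AMP and thyroid hormone signalling), 0 passed at an adjusted p under 0.05, 1 was lower at an unadjusted p under 0.05 and 0 were higher, with a median log2 fold change of -0.13. The lower one was *Adcy3*, an adenylate cyclase gene, with 151, 286, 466 and 423 in control and 183, 112, 225 and 129 in Ox1RΔSERT mice. Its log2 fold change was -1.03 ± 0.36 (SE), with an adjusted p of 0.316 in edgeR and 0.0857 in DESeq2. As for *Dio2* and *Ppargc1a*, control mouse 10684 was the low control. The most abundant input was *Gnas*, the stimulatory G protein gene, at 1644 TPM and a log2 fold change of -0.35 ± 0.17 (SE), and the thyroid hormone receptor gene *Thrb* and its partner *Rxra* were both at -0.17.

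Of 16 tested regulators that work with or upstream of the 10 genes, 0 passed, 1 was lower and 0 were higher at an unadjusted p under 0.05, and the median log2 fold change was 0.03. *Irf4*, which partners with PGC-1alpha, was at 13.5, 11.6, 10.7 and 8.45 in control and 7.95, 8.5, 9.56 and 6.64 in Ox1RΔSERT mice (log2 fold change -0.44 ± 0.17, SE). *Ehmt1*, a methyltransferase gene that acts with PRDM16, was at 0.16 and was the only regulator with all Ox1RΔSERT mice above all controls. *Ppargc1b*, the nearest relative of *Ppargc1a*, was at 0.47 ± 0.26, on the other side of 0 from *Ppargc1a*. *Nfia* was at -0.25 and *Cebpb*, the most abundant regulator at 223 TPM, was at 0.14. Of 6 repressors of the brown program, 0 passed, 2 were higher and 0 lower at an unadjusted p under 0.05, with a median of 0.15. These were *Tle3*, a corepressor gene, at 0.30 ± 0.13, and *Rbl1*, a gene of the retinoblastoma family, at 0.89 ± 0.37. *Rbl1* was at 0.925 to 1.26 in control mice, 0.983 and 1.19 in mice 11243 and 11613, and 2.78 and 2.65 in mice 11601 and 11708, the mice with the high macrophage sums.

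Of 16 effectors, genes of fuel use and of factors secreted by brown fat, 0 passed in edgeR, 6 were lower and 0 higher at an unadjusted p under 0.05, and the median log2 fold change was -0.28. DESeq2 called *Bmp8b* and *Elovl3*, both lower, with adjusted p-values of 0.0184 and 0.0406. With single mice left out these DESeq2 values reached 0.184 and 0.281, so neither call held in every such fit. *Bmp8b*, a secreted factor of thermogenic fat, was at 7.58, 2.92, 6.41 and 5.3 in control and 2.82, 2.56, 1.1 and 1.52 in Ox1RΔSERT mice (log2 fold change -1.47 ± 0.37, SE). *Elovl3*, a fatty acid elongase gene, was at 80.2, 130, 145 and 125 and at 76.7, 27.1, 67.9 and 57.2 (log2 fold change -1.07 ± 0.31, SE). *Fabp3*, a fatty acid carrier, was at 1136 to 1195 in control and 671 to 1048 in Ox1RΔSERT mice, also without overlap. *Gk*, glycerol kinase, was at 278, 544, 733 and 706 in control and 409, 338, 393 and 237 in Ox1RΔSERT mice, again with mouse 10684 as the low control. *Cox8b*, the most abundant effector at 3488 TPM, was at -0.33 ± 0.21.

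Paralogs of the 10 genes were mostly less abundant than the gene they resemble. *Cidec*, the relative of *Cidea* that white fat also uses, was the most abundant at 397 TPM and had a log2 fold change of -0.32 ± 0.13 (SE). *Ucp2* was at 37.1 TPM and *Ucp3* at 12.9, with log2 fold changes of 0.71 ± 0.35 and -0.62 ± 0.44. *Pprc1*, a relative of *Ppargc1a*, was at 4.64 TPM and 0.53 ± 0.16. Of the 11 tested paralogs, 0 passed in edgeR, 1 was lower and 1 higher at an unadjusted p under 0.05, and the median was -0.29. *Ebf1* and *Ebf3* were at 12.3 and 6.87 TPM beside 6.07 for *Ebf2*, *Ppargc1b* was at 9.5, *Cideb* at 1.84, *Mecom* at 1.11, *Zic4* at 0.527 and *Lhx6* at 0.291. *Dio1*, *Dio3*, *Ebf4*, *Zic2* and *Zic5* were at 0.15 TPM or less, and *Otop2*, *Otop3* and *Kcnk9* had 0 counts in all 8 mice, which allows a normalized value of up to 0.0951 in the library with the highest floor (3 counts, counting error only).

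Other marker lists set these values in the tissue. The adipocyte list had a median log2 fold change of -0.17, with 0 of 6 genes at an unadjusted p under 0.05, and 0 genes of the white depot (4 tested, median 0.21), endothelial (7, -0.02), Schwann and nerve (4, -0.33), blood (4, -0.32) and skeletal muscle (8, 0.56) lists were there either. In the macrophage list 9 of 10 were higher and in the preadipocyte and fibroblast list 8 of 8, at an unadjusted p under 0.05 (background 10.2% higher), with medians of 1.64 and 1.51. None had an adjusted p under 0.05 in edgeR, whereas DESeq2 called 5 macrophage genes and 1 preadipocyte and fibroblast gene higher. Without mice 11601 and 11708 those medians were 0.27 and 0.41. The white depot marker *Hoxc10* had 0 counts in every mouse.

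**Figure D5:**
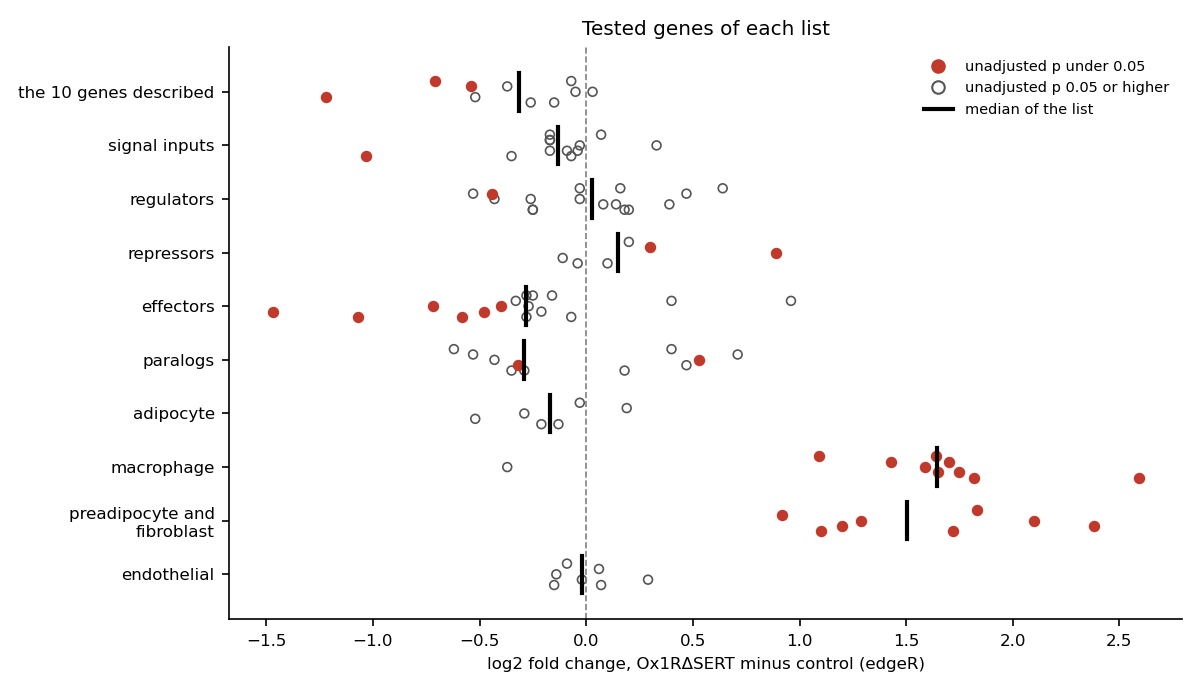
Log2 fold change (Ox1RΔSERT minus control, edgeR) of each tested gene of the lists named at the left, with genes at an unadjusted p under 0.05 in red and the median of a list as a black line. The 10 genes described and the effectors lie mostly below 0 (medians -0.32 and -0.28), the regulators lie on both sides (0.03), and the macrophage and the preadipocyte and fibroblast lists lie above (1.64 and 1.51).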

How the data were processed

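BAT mRNA of 8 mice was sequenced by the authors from stranded, poly-A selected libraries. Abundances were estimated with Salmon 0.14.1 on GRCm38 (GRCm38.p6 in the submitters' processing notes). The deposited files hold estimated counts per gene, not normalized, and TPM values, which the authors scaled by transcript length. The annotation release is not given in the sources used here.

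Symbols were taken from GENCODE (GRCm38) for 44118 of 44674 identifiers. Estimated counts were rounded and tested with edgeR 4.0.16 in R 4.3.3 (filterByExpr, TMM, quasi-likelihood test, no covariates, two-sided, Benjamini-Hochberg adjustment over 14489 genes, threshold 0.05). Normalized values are CPM after TMM scaling. The labels name 1 mouse per sample, and p-values measure the spread between these mice. The 10 genes and all lists were chosen with earlier results of these data known. Named beside them were up to 4 genes of a list with the lowest p, its gene of highest TPM, paralogs (1 is not reported here), and the 5 genes most like *Ucp1* or *Ppargc1a*.

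Alternatives were DESeq2 1.42.0, RLE, upper-quartile and TMM scaling without mitochondrially encoded genes, an offset for transcript length, no filter or at least 10 counts in every mouse, limma 3.58.1 on log2(TPM + 1) and log2(TPM + 0.1), ratios to the adipocyte genes, a threshold of 0.1, exact permutation tests, and mice left out. DESeq2 with mice left out was added after seeing the data. Scripts were tested on simulated data. Total counts are in the report, and intervals cover the spread between mice.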

Additional observations from a re-analysis of the deposited data

Results flagged for a closer look

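In 9 of 84 groups of 4 mice examined (the genes named in the report and the inducible minus lineage difference), the gap between 1 mouse and the nearest of the other 3, divided by the range of the group, exceeded Dixon's 95% critical value, which chance gives in about 1 in 20 groups that were not chosen for their pattern. Control mouse 10684 accounted for 6 of them. It was low for *Ppargc1a* (34.3, beside 103, 109 and 112), *Ppargc1b* (24, beside 36.8, 37.2 and 37.8) and *Acot4* (4.08, beside 9.85, 10.1 and 10.2). It was high for *Prdm16* (24.3, beside 9.61, 9.98 and 11.2) and *Rxra* (76.2, beside 64, 64.2 and 64.3), and its inducible minus lineage difference was 4.83 beside 6.38, 6.53 and 6.56. Control mouse 11253 was low for *Ehmt1* (21.1, beside 22.4, 22.5 and 22.6) and *Nfia* (72.1, beside 77.5, 77.7 and 78.5), small gaps in tight groups. Ox1RΔSERT mouse 11601 was high for *Prdm16* (18.6, beside 11, 11.8 and 11.9). *Acot4* was named for its likeness to *Ppargc1a*, and the difference contains *Ppargc1a* and *Prdm16*, so these values are not separate from those of the genes. Values are normalized values except for the difference, which is on the log2 scale.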

How the results depend on the processing

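The study describes the control mice as littermates of the Ox1RΔSERT mice. No paired analysis was possible because the labels tie no mouse of one group to a mouse of the other, by litter or by number. Litter was therefore not part of any fit. Every edgeR and limma alternative called 0 genes at an adjusted p under 0.05, and edgeR with all 8 mice also called 0 at a threshold of 0.1. DESeq2 called 265 genes. Without control mouse 10684, 11253, 11560 or 11563 it called 373, 247, 17 and 49, without Ox1RΔSERT mouse 11243, 11601, 11613 or 11708 it called 1516, 17, 936 and 19, and without mice 11601 and 11708 together 8. Of the 10 genes it then called 0 to 2: *Ucp1* without mouse 11243 (adjusted p = 0.000582), *Dio2* and *Kcnk3* without mouse 11613 (0.0196 and 0.0423) and *Dio2* without mouse 10684. *Ucp1*, *Dio2*, *Ppargc1a*, *Zic1* and *Kcnk3* kept a negative log2 fold change in all 29 alternatives, the one nearest to 0 being -0.03 for *Kcnk3* without mice 11601 and 11708. The inducible minus lineage difference of -0.39 ranged from -0.80 to -0.17 with single mice left out and was 0.14 without mice 11601 and 11708.

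Log2 fold changes near 0 changed sign. With limma on log2(TPM + 0.1) and log2(TPM + 1), scales on which the median of all genes was shifted by 0.32 and 0.23, *Cidea* was at 0.01 and 0.01, *Prdm16* at 0.27 and 0.16, *Lhx8* at 0.17 and 0.14 and *Otop1* at 0.15 and 0.14. As ratios to adipocyte genes (shift 0.24), *Prdm16* was at 0.26, *Lhx8* at 0.09 and *Otop1* at 0.06. With a transcript length offset *Ebf2* was at -0.02. Without mice 11601 and 11708, edgeR and DESeq2 gave 0.07 and 0.07 for *Cidea*, -0.09 and -0.08 for *Ebf2*, and 0.10 and 0.10 for *Otop1*. With single mice left out the range was -0.26 to 0.37 for *Prdm16*, -0.09 to 0.18 for *Ebf2* and -0.26 to 0.14 for *Lhx8* in edgeR, and -0.26 to 0.36, -0.08 to 0.16 and -0.26 to 0.13 in DESeq2, where *Ebf2* was at -0.07 without mouse 11243 or mouse 11601.

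List medians moved likewise. In the 2 TPM scales the signal inputs were at 0.20 and 0.18, effectors at 0.02 and 0.02, paralogs at 0.16 and 0.05, adipocyte genes at 0.13 and 0.13, endothelial genes at 0.31 and 0.29, and Schwann and nerve genes at 0.03 and 0.03. As ratios to adipocyte genes, inputs were at 0.11, paralogs at 0.05 and adipocyte genes at 0.05. Without mice 11601 and 11708, adipocyte genes were at 0.05 and skeletal muscle genes at -3.94. The skeletal muscle median was 7.01 without control mouse 11253 and -2.31 without Ox1RΔSERT mouse 11708. With single mice left out the regulators ranged from -0.14 to 0.10 and the paralogs from -0.34 to 0.10. Beyond the shift of all genes, the cause was not tested. In simulated counts for this comparison (14338 genes tested), edgeR called 76.5% of genes changed 4-fold and 36.1% of genes changed 2-fold. DESeq2, with 14489 genes tested, called 83.0% of genes changed 4-fold and 62.0% of genes changed 2-fold. At an adjusted p under 0.05, unchanged genes made up 5.98% of the edgeR calls and 28.9% of the DESeq2 calls. These shares hold for the simulated counts, in which few genes were changed and each count was drawn independently. The share of unchanged genes among the DESeq2 calls of this report is not known.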
